A study of Homo sapiens with 12 samples.

Results

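The 10 genes described here encode mitochondrial chaperones and proteases, and they were taken by symbol from the 61209 rows of the deposited count table. All 10 symbols were found, and all 10 passed the filter on low counts that left 18526 genes to be tested. The cells were A375, an established human melanoma line. RNA was sequenced from 4 groups of 3 libraries: OGDH-depleted cells starved of glucose for 5 h, OGDH-depleted cells with glucose, control cells starved of glucose for 5 h, and control cells with glucose. OGDH encodes a subunit of the 2-oxoglutarate dehydrogenase complex in the mitochondrial citric acid cycle. Titles of the samples read KO and the series text reads knockdown, so "OGDH-depleted" is used here. The labels used here do not say how OGDH was depleted, what the control cells carried, or whether the cells were 1 clone. They also do not say whether replicate libraries are separate cultures, so the spread behind each p-value may be technical.

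Most mitochondrial proteins are made in the cytosol and imported unfolded. In the matrix they are pulled in and folded by mortalin, the mitochondrial HSP70, with its co-chaperone TID1, and then by the HSP60 chamber with its HSP10 lid. TRAP1 is the HSP90 of the matrix. Damaged or unassembled proteins are degraded by ATP-dependent proteases. LON and the CLPP chamber with its CLPX unfoldase work in the matrix, while YME1L1 and AFG3L2 are anchored in the inner membrane and face opposite sides of it. When unfolded proteins accumulate in mitochondria, several of these nuclear genes are known to be induced.

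The promoters of HSPD1 and HSPA9 are shown first, because these were the 2 genes called both for starvation of control cells and for OGDH loss without glucose. Sequences are RefSeq sequences on GRCh38.p14 from 250 bases before to 50 bases after a transcription start, and 8 of the 10 genes were matched. HSPD1, for HSP60, and HSPE1, for HSP10, lie head to head on chromosome 2. HSPD1 has 2 windows, both on the minus strand: the first at chr2:197500225-197500524 and the second at chr2:197499791-197500090. The HSPE1 window, on the plus strand at chr2:197500129-197500428, shared 204 bases with the first HSPD1 window and 0 with the second. The HSPA9 window, for mortalin, lies on the minus strand at chr5:138575352-138575651. Capitals mark matches to the heat shock element (GAANNTTC or TTCNNGAA) and to the E-box CACGTG, each searched on both strands.
HSPD1 first window: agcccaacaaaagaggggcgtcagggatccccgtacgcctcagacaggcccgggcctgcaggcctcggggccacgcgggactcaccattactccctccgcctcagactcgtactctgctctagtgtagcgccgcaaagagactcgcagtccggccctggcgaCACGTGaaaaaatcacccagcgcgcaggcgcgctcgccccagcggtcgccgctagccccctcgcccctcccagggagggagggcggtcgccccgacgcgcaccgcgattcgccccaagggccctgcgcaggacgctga
HSPD1 second window: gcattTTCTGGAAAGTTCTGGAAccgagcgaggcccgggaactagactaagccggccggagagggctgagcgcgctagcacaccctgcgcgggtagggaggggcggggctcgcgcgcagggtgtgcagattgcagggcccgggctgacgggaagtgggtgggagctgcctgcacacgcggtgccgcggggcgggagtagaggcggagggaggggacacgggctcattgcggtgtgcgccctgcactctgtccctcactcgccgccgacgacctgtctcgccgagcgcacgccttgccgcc
HSPA9 window: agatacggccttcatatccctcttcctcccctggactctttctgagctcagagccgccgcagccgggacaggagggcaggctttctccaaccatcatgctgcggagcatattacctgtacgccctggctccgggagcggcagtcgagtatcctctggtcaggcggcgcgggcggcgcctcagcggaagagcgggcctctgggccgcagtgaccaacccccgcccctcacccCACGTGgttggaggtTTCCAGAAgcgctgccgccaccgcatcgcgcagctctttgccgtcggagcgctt

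The second HSPD1 window held 3 matches to the heat shock pattern, beginning at -245, -240 and -235 with the start counted as 0. They overlap in a single unbroken run of letters, so they are not 3 separate elements. The HSPA9 window held 1 match, from -4 to 3. Of the 35116 promoter windows of the same length, 13.5% held at least 1 such match. CACGTG stood in the first HSPD1 window and again in the HSPE1 window that overlaps it, in the HSPA9 window and in the second LONP1 window, against 7.26% of all windows. The composite element of C/EBP and ATF factors, TGATGNAA, had no match in the 10 windows and stood in 3.62% of all windows. CCACG stood in the first HSPD1 window, in those of HSPA9, where it overlaps CACGTG, DNAJA3, TRAP1 and CLPX, and in both of LONP1, against 38.1% of all windows, and CCAAT stood in those of DNAJA3 and CLPX, against 34.6%. TGACGTG had no match in the 10 windows and stood in 1.97% of all. These matches describe letters in the windows and were not tested for binding.

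Libraries held 21556273 to 25546615 counted fragments, and levels below are CPM, counts scaled to a common library size with edgeR's TMM factors. OGDH, which checks the labels, stood between 32.3 and 45.1 CPM in the 6 depleted libraries, against 129 to 166 CPM in the 6 control libraries. Of 12 melanoma lineage markers, 6 to 8 averaged above 1 CPM in each group, and the list summed to 772 to 817 CPM in starved OGDH-depleted, 823 to 955 in OGDH-depleted, 535 to 563 in starved control and 920 to 983 in control libraries. SOX10 and CSPG4 carried most of that sum, with group means of 348 to 633 and 131 to 202 CPM. PMEL, MLANA, TYR, DCT and MIA averaged at most 1.33 CPM in any group. In starved control cells SOX10 and ERBB3 were lower (0.55-fold and 0.23-fold, edgeR adjusted p = 0.000209 and 7.94e-07). S100B was also lower, from 1.51 to 0.622 CPM (0.41-fold, edgeR adjusted p = 0.0015), and TYRP1 was 11.3-fold higher (adjusted p = 5.66e-05). The TYRP1 fold is a change near the floor, from 0.221 CPM in control to 2.57 CPM in starved control cells. Blood cell, fibroblast and endothelial markers summed to at most 1.23, 10.2 and 4.83 CPM. Of 5 epithelial markers 2 averaged above 1 CPM, and the list summed to 412 to 442 CPM in starved OGDH-depleted, 358 to 375 in OGDH-depleted, 800 to 888 in starved control and 349 to 395 in control libraries. KRT18 carried most of the epithelial sum, with 743 CPM in starved control and 296 CPM in control cells. KRT8 was not called there (edgeR adjusted p = 0.541), and EPCAM, CDH1 and KRT19 averaged at most 0.182 CPM in any group. MITF averaged 44.2 CPM in starved control and 30.1 CPM in control cells and did not pass (adjusted p = 0.0638). Both sums thus moved with starvation of control cells, though not all members moved alike, and their part in the results was not tested. In bulk RNA, fewer cells of a kind and less RNA per cell cannot be told apart. Mitochondrially encoded rows held 3.06%, 5.12% and 9.71% of counts in starved OGDH-depleted, 6.25%, 6.98% and 5.16% in OGDH-depleted, 14.4%, 13.2% and 4.11% in starved control and 4.97%, 14.6% and 6.35% in control libraries. Within their groups, 3 libraries stood farthest from the others: starved OGDH-depleted replicate 3, starved control replicate 3 and control replicate 2. The first was hardly farther from its group mean than replicate 1 (root mean square log2 deviation 0.264 and 0.246). Fits without these 3 were added after seeing the data. Leaving out the farthest libraries narrows the spread by construction, so small p-values in those fits are no added support. The same 3 had the highest mitochondrial share, the lowest and the highest of their groups. Each library was also given a GC slope, which is the slope of its genes' log2 deviations from the group mean against transcript GC content, per 10 percentage points. The 3 libraries had slopes of -0.20, 0.24 and -0.28, whereas the OGDH-depleted libraries with glucose lay between -0.0019 and 0.0035.

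Levels differed widely between the 10 genes when divided by the exon length the table gives, which counts every annotated exon base. In starved OGDH-depleted cells HSPD1 averaged 101 ± 13.7 CPM per kb and HSPA9 79.0 ± 11.7 (SD, n = 3 throughout). LONP1 and TRAP1 followed at 60.6 ± 17 and 57.3 ± 8.32, then CLPP at 34.9 ± 3.22 and YME1L1 at 19.0 ± 0.513. AFG3L2, CLPX, HSPE1 and DNAJA3 came last, at 13.8 ± 1.27, 12.9 ± 0.804, 5.09 ± 1.21 and 0.575 ± 0.201 CPM per kb. This is an order of rows as counted, and the DNAJA3 row is not read as the level of its mRNA. For HSPE1, pseudogene rows held 80.0% of the counts of the gene and its copies. TRAP1 is understated, since 28.5% of its exon bases overlap other genes and fragments there were left out. LONP1 and TRAP1 did not differ beyond their spread in this order, nor did AFG3L2 and CLPX. CLPP was above YME1L1, and YME1L1 above AFG3L2 and CLPX, in each of the 4 group means. In control cells with glucose HSPD1, HSPA9, TRAP1 and LONP1 averaged 84.8 ± 17.1, 69.4 ± 13.2, 58.1 ± 8.26 and 51.4 ± 16.8 CPM per kb, ranges that overlap from each gene to the next. Within each of these libraries, though, HSPA9 stood below HSPD1, at 0.81 to 0.83 of its level per kb.

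**Figure D1:**
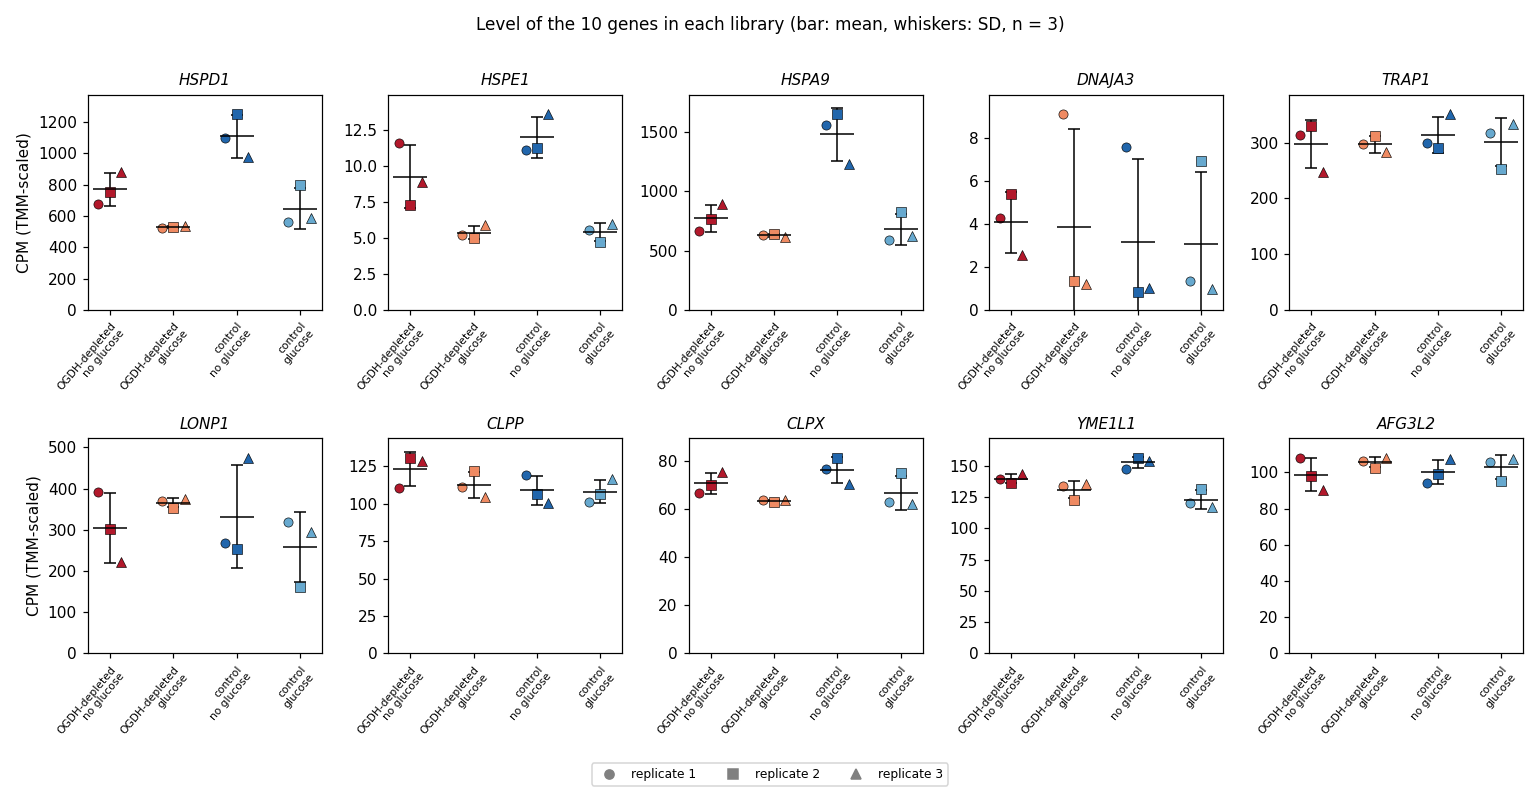
Level of each of the 10 genes in CPM (vertical axes, each from 0) in the 12 libraries, by group, with replicates as symbols, means as bars and SD as whiskers (n = 3). The starved control libraries stand highest for HSPD1 and HSPA9, LONP1 spreads widely in 3 of the groups, and DNAJA3 stays below 10 CPM.

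Starvation of control cells asked how these genes respond to loss of glucose where OGDH is intact, and it changed 4 of the 10, all of them higher: HSPA9, HSPE1, HSPD1 and YME1L1. Over all tested genes 34.5% were called in this comparison, in either direction (edgeR's quasi-likelihood test, Benjamini-Hochberg adjusted p under 0.05). The median log2 fold change of the 10 genes, with the DNAJA3 row included, was 0.25, beside -0.023 over all genes. The 3 chaperone rows were 1.71-fold to 2.21-fold higher. CLPP, CLPX, AFG3L2 and TRAP1 lay within 0.20 of 0 on the log2 scale, and LONP1 was not resolved.

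HSPA9 (chromosome 5, 138553756 to 138575675, minus strand, hg38) had 1562, 1650 and 1226 CPM in starved control libraries, against 591, 827 and 619 CPM in control libraries with glucose. The groups did not overlap, and control replicate 2 was the highest of the libraries with glucose. The rise was 2.18-fold (log2 1.12, SE 0.16, edgeR adjusted p = 0.000265), and it passed in all 12 fits that left out 1 library. Without the 3 libraries that stood farthest from their groups it was 1.40 (adjusted p = 1.06e-07).

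HSPD1 (chromosome 2, 197486584 to 197516737, minus strand) had 1099, 1250 and 975 CPM in starved control libraries, against 558, 796 and 585 CPM in control libraries with glucose. Again the groups did not overlap, and the same control replicate 2 was highest. The rise was 1.71-fold (log2 0.78, SE 0.15, edgeR adjusted p = 0.00224). Without the same 3 libraries it was 1.03 (adjusted p = 1.28e-06). HSPD1 has 18 named pseudogene rows in the table, which held 18.6% of the counts of HSPD1 and its copies together. The copies HSPD1P1 and HSPD1P4 moved with it, at log2 0.68 and 0.72 (edgeR adjusted p = 0.00403 and 0.00729), and with all pseudogene rows added HSPD1 stood at 0.76 (adjusted p = 0.00252).

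HSPE1 (chromosome 2, 197500140 to 197503449, plus strand) was counted at 110 to 324 fragments per library. It had 11.1, 11.3 and 13.6 CPM in starved control libraries, against 5.59, 4.76 and 5.94 CPM in control libraries with glucose, with no overlap. The fitted rise was log2 1.15 (SE 0.18, edgeR adjusted p = 0.000435). The row is uncertain as a measure of HSP10 mRNA, because fragments that match several places were left out and 26 pseudogene rows held 80.0% of the counts of HSPE1 and its copies. HSPE1P2 on chromosome 14 alone held 494 to 790 fragments per library and had a log2 fold change of 0.037 (adjusted p = 0.826). With all pseudogene rows added, HSPE1 stood at 0.26 and the call was lost (adjusted p = 0.138). A further 17.9% of its exon bases overlap other genes, 10.5% with the readthrough gene HSPE1-MOB4 and 7.41% with HSPD1 on the opposite strand.

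YME1L1 (chromosome 10, 27110111 to 27155266, minus strand), the inner membrane protease that faces the intermembrane space, had 148, 157 and 154 CPM in starved control libraries, against 120, 131 and 117 CPM in control libraries with glucose. The groups did not overlap, and the rise of 1.24-fold was the smallest of the 4 (log2 0.31, SE 0.082, edgeR adjusted p = 0.0119). The call was lost without control replicate 3 (adjusted p = 0.0554), and with no filter, with the fit limited to control cells, or with a correction for GC content (adjusted p = 0.17, 0.0804 and 0.104).

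CLPX, the unfoldase of the CLPP protease, had 76.6, 81.2 and 70.4 CPM in starved control libraries, against 62.9, 74.8 and 62.1 CPM in control libraries with glucose. Control replicate 2 overlapped the starved libraries, and the change did not pass (log2 0.19, edgeR adjusted p = 0.159). It passed without that replicate (0.28, adjusted p = 0.0342) and without the 3 libraries that stood farthest from their groups (0.33, adjusted p = 0.00114). CLPP itself, the proteolytic chamber, stood at 101 to 119 CPM in starved control libraries and 101 to 116 CPM in those with glucose (log2 0.011, 95% interval -0.24 to 0.26). AFG3L2, the inner membrane protease that faces the matrix, stood at 94.3 to 107 and 95.3 to 108 CPM (log2 -0.035, interval -0.26 to 0.19), and TRAP1 at 291 to 351 and 252 to 333 CPM (log2 0.061, interval -0.26 to 0.38). With the GC correction TRAP1 passed (0.21, adjusted p = 0.0324), and without the 3 libraries that stood farthest from their groups it was -0.15 (adjusted p = 0.0991). Of the exon bases of TRAP1 28.5% overlap other genes, mainly DNASE1 on the opposite strand, and of those of AFG3L2 11.7% overlap TUBB6, so fragments there were left out of both.

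LONP1 (chromosome 19, 5691834 to 5720572, minus strand), the LON protease, had the widest relative spread between replicates of the 10 genes, DNAJA3 apart, in 3 of the 4 groups, with SDs of 28.0%, 2.99%, 37.4% and 32.6% of the mean in starved OGDH-depleted, OGDH-depleted, starved control and control cells. It had 268, 253 and 475 CPM in starved control libraries, against 320, 162 and 294 CPM in control libraries with glucose. The groups overlapped and the change was not resolved (log2 0.36, 95% interval -0.32 to 1.04, edgeR adjusted p = 0.376). Without the 3 libraries that stood farthest from their groups it was -0.24 (adjusted p = 0.0705), and with a correction for GC content it was 0.55 (adjusted p = 0.0052), so neither its direction nor its call held across these fits, both chosen after seeing the data.

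The spread of LONP1 ran with the GC slope of the libraries. LONP1 transcripts average 62.3% GC, above 91.5% of tested genes, whereas HSPA9 and HSPD1 stand at 44.4% and 46.5% beside a median of 48.8%. Control replicate 2, with the lowest slope of -0.28, had LONP1 at -0.61 and HSPA9 at 0.30 relative to the group mean on the log2 scale. Starved control replicate 3, with the highest slope of 0.24, had LONP1 at 0.58 and HSPA9 at -0.26. CLPP, at 61.7% GC, did not follow this order: its level relative to the group mean was -0.022 in control replicate 2 and -0.11 in starved control replicate 3. The part of GC content in the results was not tested beyond the correction named above. The mitochondrial share of counts ran in part with HSPA9 and HSPD1 too: within starved OGDH-depleted libraries and control libraries with glucose both genes followed its order. In starved control libraries the one with the lowest share was lowest for both, but the one with the highest share was highest for neither. In OGDH-depleted libraries with glucose HSPA9 followed the order, whereas HSPD1 was highest, at 539 CPM, where the share was lowest, at 5.16%. With mitochondrially encoded rows left out, the rise in starved control cells was 1.12 for HSPA9 and 0.77 for HSPD1, and the part of RNA quality was not tested otherwise. These points share their libraries, and are given as a description.

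**Figure D2:**
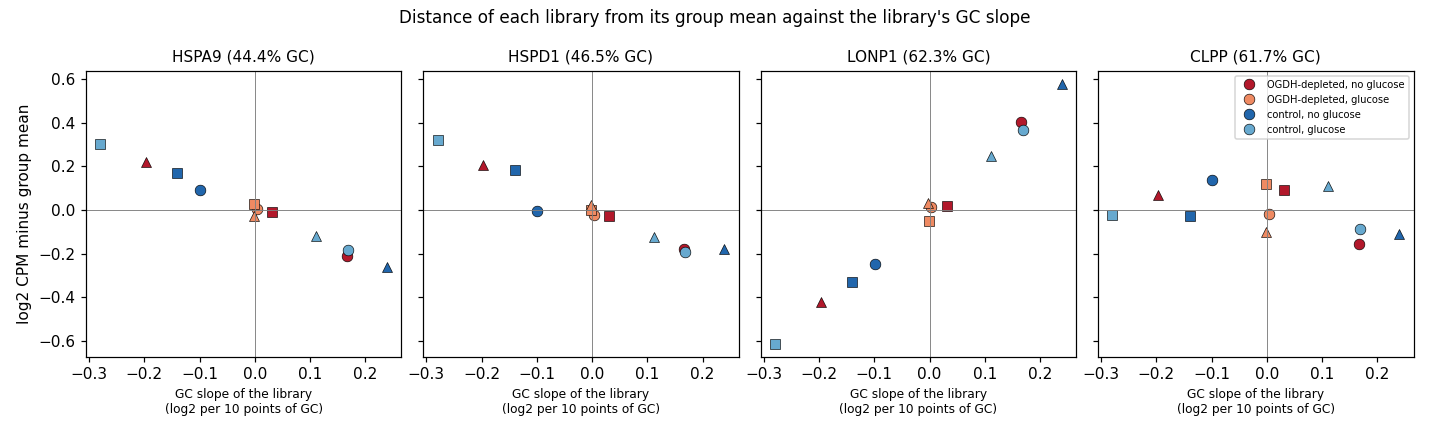
Distance of each library from its group mean (vertical axis, log2 CPM) against the library's GC slope (horizontal axis, log2 per 10 percentage points of GC) for 4 genes; colours are groups and symbols replicates. HSPA9 and HSPD1 run downward, LONP1 runs upward from -0.61 to 0.58, and CLPP shows no such slope.

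In OGDH-depleted cells, starvation changed 1 of the 10 genes, HSPE1, which was higher, beside 7.18% of all tested genes called in either direction. The median of the 10, with the DNAJA3 row included, was 0.11 on the log2 scale, beside 0.020 over all genes. HSPE1 had 11.6, 7.29 and 8.89 CPM in starved OGDH-depleted libraries, against 5.24, 4.99 and 5.90 CPM in OGDH-depleted libraries with glucose, without overlap (log2 0.79, SE 0.18, edgeR adjusted p = 0.0214). The call was lost in 5 of the 12 fits that left out 1 library: starved OGDH-depleted replicate 1 or 3, or any of the OGDH-depleted libraries with glucose (adjusted p = 0.061, 0.0603, 0.0866, 0.0953 and 0.0543). It was also lost with the pseudogene rows added (0.31, adjusted p = 0.181).

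HSPD1 had 676, 750 and 883 CPM in starved OGDH-depleted libraries, against 523, 531 and 539 CPM in OGDH-depleted libraries with glucose. The groups did not overlap, and the libraries with glucose lay close together. The change just missed the threshold in edgeR's quasi-likelihood test (log2 0.54, SE 0.15, adjusted p = 0.058), and passed with DESeq2 (adjusted p = 0.0114).

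HSPA9 had 664, 763 and 892 CPM in starved OGDH-depleted libraries, against 632, 642 and 618 CPM in OGDH-depleted libraries with glucose. Here too the groups did not overlap, but the lowest starved library lay close to those with glucose (log2 0.29, 95% interval -0.074 to 0.66, edgeR adjusted p = 0.282). The starved library highest for both genes was replicate 3, which had the lowest GC slope of its group. Without the 3 libraries named above, the values were 0.41 for HSPD1 (adjusted p = 0.00398) and 0.16 for HSPA9 (adjusted p = 0.172).

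YME1L1 had 139, 136 and 144 CPM in starved OGDH-depleted libraries, against 134, 123 and 135 CPM in those with glucose (log2 0.096, edgeR adjusted p = 0.48). CLPX, CLPP, TRAP1, AFG3L2 and LONP1 lay between -0.26 and 0.16 and none passed. LONP1 had 392, 301 and 222 CPM in starved OGDH-depleted libraries, against 369, 353 and 374 CPM in those with glucose. Replicates 1 and 3 of the starved group stood above and below all libraries with glucose, and these had GC slopes of 0.17 and -0.20.

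The interaction, which sets the starvation response of OGDH-depleted cells against that of control cells, was past the threshold for 1 of the 10 genes, HSPA9, and lower. Of all tested genes 17.3% were called in the interaction, in either direction. The HSPA9 response was 1.23-fold in OGDH-depleted cells and 2.18-fold in control cells, a difference of -0.83 on the log2 scale (SE 0.23, 95% interval -1.35 to -0.31, edgeR adjusted p = 0.0263). Leaving out 1 library kept its size between -0.99 and -0.73 but lost the call in 9 of 12 fits, with an adjusted p of up to 0.0656; it held without starved OGDH-depleted replicate 3, without starved control replicate 3 or without control replicate 2. Without these 3 together, a choice made after seeing the data, it was -1.24 (adjusted p = 8.56e-06). In that fit 8077 of 18776 tested genes were called in the interaction, beside 3196 of 18526 in the main fit.

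For the other chaperones the difference was not resolved: it was -0.24 for HSPD1 (95% interval -0.74 to 0.26) and -0.36 for HSPE1 (interval -0.93 to 0.21). Among the proteases it was -0.22 for YME1L1 (interval -0.49 to 0.050) and -0.62 for LONP1 (interval -1.58 to 0.34). CLPP stood at 0.12 (interval -0.23 to 0.47), and CLPX, AFG3L2 and TRAP1 between -0.063 and -0.035. Without the 3 libraries named above the difference passed also for HSPD1 (-0.63, edgeR adjusted p = 0.00113), YME1L1 (-0.29, adjusted p = 0.0285) and CLPX (-0.24, adjusted p = 0.047). With the GC correction it passed for LONP1 (-0.55, adjusted p = 0.0484) beside HSPA9 (-0.93, adjusted p = 0.000253). Both fits were added after seeing the data, so these calls are not counted as support.

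**Figure D3:**
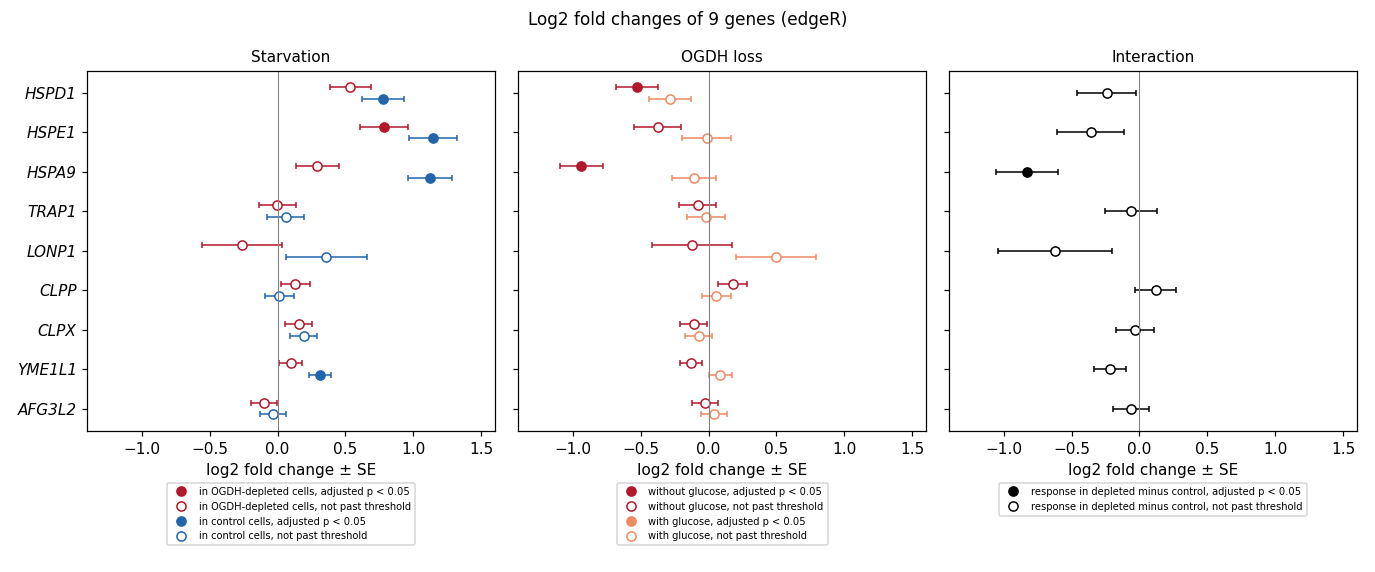
Log2 fold changes with SE (horizontal axes) of 9 genes for starvation, for OGDH loss and for the interaction; filled points have an edgeR adjusted p under 0.05. HSPA9 stands at 0.29 in OGDH-depleted and 1.12 in control cells, and is the filled point of the interaction.

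OGDH loss without glucose compared the starved groups and changed 2 of the 10 genes, HSPA9 and HSPD1, both lower. Of all tested genes 28.7% were called in either direction. It uses the same starved libraries as the comparisons above, so its values follow in part from them. HSPA9 averaged 773 ± 115 CPM in starved OGDH-depleted cells and 1479 ± 224 CPM in starved control cells (SD, n = 3 each), and fell by 0.94 on the log2 scale (SE 0.16, edgeR adjusted p = 0.00119). HSPD1 averaged 770 ± 105 CPM and 1108 ± 138 CPM, and fell by 0.53 (SE 0.15, adjusted p = 0.0231). No library of one group overlapped the other for either gene. The HSPD1 call was lost without starved OGDH-depleted replicate 1 or 2 or starved control replicate 1 or 2 (adjusted p = 0.0852, 0.0754, 0.0546 and 0.0883), and the HSPA9 call was kept in all 12 such fits. Without the 3 libraries that stood apart the changes were -1.19 for HSPA9 (adjusted p = 6.81e-07) and -0.74 for HSPD1 (adjusted p = 2.47e-05).

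HSPE1 stood at 7.29 to 11.6 CPM in starved OGDH-depleted and 11.1 to 13.6 CPM in starved control libraries (log2 -0.37, edgeR adjusted p = 0.13). YME1L1 had no overlap, with 136 to 144 against 148 to 157 CPM, but did not pass (-0.13, adjusted p = 0.273). LONP1 stood at 222 to 392 CPM in starved OGDH-depleted and 253 to 475 CPM in starved control libraries (-0.12, adjusted p = 0.8). Without the 3 libraries that stood apart it turned to 0.39 and passed (adjusted p = 0.0103). CLPX was -0.11 (adjusted p = 0.464) and passed without these libraries (-0.23, adjusted p = 0.0111). CLPP stood at 110 to 131 CPM in starved OGDH-depleted and 101 to 119 CPM in starved control libraries (0.18, adjusted p = 0.247), while AFG3L2 and TRAP1 were at -0.022 and -0.081.

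With glucose present, OGDH loss changed 0 of the 10 genes by edgeR's quasi-likelihood test, beside 3.04% of all tested genes. At an unadjusted p under 0.05 the number was also 0, and DESeq2 called 0. Log2 fold changes ran from -0.28 for HSPD1 to 0.50 for LONP1. HSPD1 had 523 to 539 CPM in OGDH-depleted libraries and 558 to 796 CPM in control libraries (95% interval -0.64 to 0.067), without overlap. HSPA9 had 618 to 642 and 591 to 827 CPM (log2 -0.11, interval -0.47 to 0.26). LONP1 had 353 to 374 CPM in OGDH-depleted and 162 to 320 CPM in control libraries, also without overlap, with an interval of -0.18 to 1.18. CLPX, CLPP, YME1L1, AFG3L2, TRAP1 and HSPE1 lay within 0.09 of 0.

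HSPA9 and HSPD1 did not keep a fixed ratio across the groups. Per kb of exon, HSPA9 stood at 0.77 to 0.79 of HSPD1 in starved OGDH-depleted libraries and 0.89 to 0.94 in OGDH-depleted libraries with glucose. It stood at 0.98 to 1.11 in starved control libraries and 0.81 to 0.83 in control libraries with glucose. The ratio was higher with starvation in control cells and lower with starvation in OGDH-depleted cells, with no overlap in either pair. CLPX and CLPP, subunits of 1 protease, had per kb ratios of 0.35 to 0.39, 0.33 to 0.39, 0.42 to 0.49 and 0.34 to 0.46 in the same order of groups, with overlap between starved and fed libraries of each background.

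Among 11132 genes averaging at least 5 CPM, the profile over the 12 libraries most like that of HSPA9, by root mean square difference of log2 CPM after centring each gene, was that of MARK3 (0.040), then C1GALT1 (0.053) and PDE4D (0.067). HSPD1 ranked 144 on that scale (0.16), and the other genes described here ranked from 1963 down. For HSPD1 the nearest were WDR47 (0.059), BCL10 (0.062) and MAN2A1 (0.073), with HSPA9 at rank 239.

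Relatives of these chaperones in the endoplasmic reticulum (ER) and cytosol, 8 in number, serve as comparators; whether they moved further than the mitochondrial ones was not tested. All 8 were called higher for starvation of control cells (median log2 fold change 2.13), 4 rose in starved OGDH-depleted cells (median 0.48), and 7 were lower in the interaction (median -1.58). Of all tested genes 34.5%, 7.18% and 17.3% were called in these comparisons, in either direction. The medians over all genes were -0.023, 0.020 and 0.014. In starved control cells their log2 fold changes ran from 0.51 for HSP90AB1, which is below HSPD1, HSPA9 and HSPE1, to 5.72 for HSPA1A. In starved OGDH-depleted cells they ran from 0.25 for HSPA8 to 3.01 for HSPA1A. HSPA5, the HSP70 of the ER, averaged 821 ± 32.7 CPM in starved OGDH-depleted cells, 685 ± 6.75 CPM in OGDH-depleted cells with glucose, 11450 ± 686 CPM in starved control cells and 799 ± 42.8 CPM in control cells with glucose. HSPA9 was 0.52 to 0.76 of HSPA5 per kb in starved OGDH-depleted libraries and 0.60 to 0.63 in those with glucose. It was 0.067 to 0.10 in starved control libraries and 0.47 to 0.73 in control libraries with glucose, and of these comparisons between starved and fed cells only that in control cells was without overlap. TRAP1 in the same way was 0.83 to 1.48 and 1.48 to 1.69 of HSP90B1, the HSP90 of the ER, in OGDH-depleted cells. It was 0.25 to 0.42 in starved control libraries and 0.78 to 1.52 in those with glucose.

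**Figure D4:**
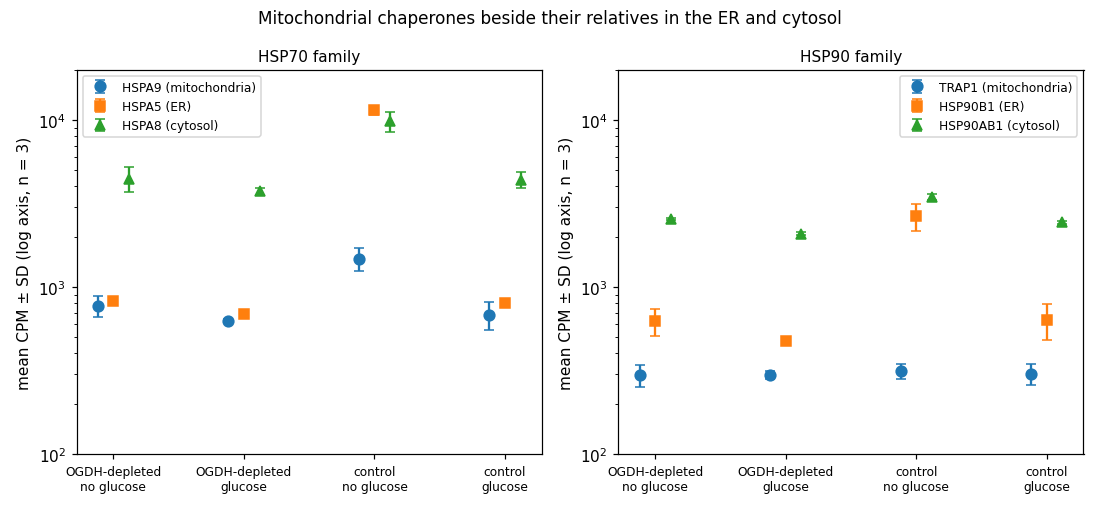
Mean CPM with SD (log axis, n = 3) of HSPA9 and TRAP1 beside their ER and cytosolic relatives in the 4 groups. HSPA5 averages 11450 CPM in starved control cells and at most 821 CPM in the other groups, HSPA9 reaches 1479 CPM there, and TRAP1 lies between 297 and 314 CPM in all 4.

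Of 11 other mitochondrial chaperones and co-chaperones, 3 rose and 1 fell in starved control cells, a share close to the 34.5% of all tested genes. GRPEL2 (log2 0.78, edgeR adjusted p = 0.00249) and GRPEL1 (0.36, adjusted p = 0.0115), the nucleotide exchange factors of mortalin, and HSCB (0.61, adjusted p = 0.0133), a co-chaperone of iron-sulfur cluster assembly, were higher. DNAJC19, a J-domain protein of the inner membrane, was lower (-0.42, adjusted p = 0.0456). In OGDH-depleted cells starvation called 0 of the 11 by edgeR and 0 by DESeq2, with 3 at an unadjusted p under 0.05, beside 7.18% of all genes. GRPEL1 was lower in the interaction (-0.45, adjusted p = 0.0376) and in starved OGDH-depleted against starved control cells (-0.29, adjusted p = 0.0351). Of 13 other proteases and peptidases, edgeR called 0 for starvation in either background, while DESeq2 called 1 in each, and 1 in each had an unadjusted p under 0.05. Of all tested genes, edgeR called 34.5% for starvation of control cells and 7.18% for that of OGDH-depleted cells. In the interaction edgeR called 0 and DESeq2 1, with 3 at an unadjusted p under 0.05, beside 17.3% of all genes called by edgeR. OMA1, a stress-activated inner membrane protease, was higher in starved OGDH-depleted than in starved control cells (0.56, adjusted p = 0.024). It was the 1 gene of the 13 that edgeR called there, beside 28.7% of all genes.

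Of 18 measured import genes, 3 rose and 3 fell in starved control cells, again close to the 34.5% over all genes. TIMM17A, a subunit of the presequence translocase, rose (log2 0.41, edgeR adjusted p = 0.00997), while TIMM21, another subunit, fell to 0.499-fold (adjusted p = 6.41e-06) and TIMM8A, a carrier of inner membrane proteins, fell by 0.40 (adjusted p = 0.0147). In OGDH-depleted cells starvation called 0 of the 18 by edgeR and 0 by DESeq2, with 1 at an unadjusted p under 0.05. In the interaction 1 was higher and 1 lower, beside 17.3% of all genes: TIMM21 at 0.79 (adjusted p = 0.00116) and TIMM44, which tethers mortalin to the translocase, at -0.83 (adjusted p = 0.0459). For OGDH loss without glucose 2 were higher and 1 lower, beside 28.7% of all genes: TIMM21 at 0.80, TIMM8A at 0.32 and TIMM17A at -0.74 (adjusted p = 5.17e-05, 0.0496 and 0.000302).

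Of 15 regulators of the mitochondrial stress response, 6 rose and 3 fell in starved control cells, beside 34.5% of all genes. In starved OGDH-depleted cells edgeR called 1, at about the 7.18% over all genes: PPARGC1B, a coactivator of mitochondrial biogenesis, which fell (log2 -0.97, edgeR adjusted p = 0.00224). DESeq2 called 3 there, with DDIT3 and FOXO3 beside PPARGC1B, and 4 had an unadjusted p under 0.05 by edgeR. DDIT3 and FOXO3 stood higher by edgeR but did not pass (0.53 and 0.40, edgeR adjusted p = 0.0677 and 0.0652). In the interaction 5 were lower and 1 higher, beside 17.3% of all genes, and under OGDH loss without glucose 3 were lower and 3 higher, beside 28.7%. DDIT3, a stress-induced transcription factor, averaged 21.7 ± 2.97 CPM in starved OGDH-depleted cells, 15.1 ± 1.95 CPM in OGDH-depleted cells with glucose, 171 ± 24.0 CPM in starved control cells and 13.2 ± 1.93 CPM in control cells with glucose. CEBPB and FOXO3, also transcription factors, rose by 2.22 and 1.06 on the log2 scale in starved control cells (edgeR adjusted p = 2.8e-06 and 3.81e-05). DDIT3 and CEBPB were lower in the interaction, at -3.17 and -2.46 (adjusted p = 6.59e-06 and 4.72e-05), and under OGDH loss without glucose, at -2.98 and -1.75 (adjusted p = 4.63e-07 and 2.39e-05). SIRT3, a mitochondrial deacetylase, was higher in both, at 0.77 and 0.79 (adjusted p = 0.00681 and 0.000379). ATF5, a transcription factor tied to the mitochondrial unfolded protein response, fell by 0.54 in starved control cells (edgeR adjusted p = 0.0047). ATF4, another transcription factor of the list, went the other way there and rose by 0.63 (adjusted p = 0.00509). HSF1, the main heat shock factor, rose by 0.39 in the same cells (adjusted p = 0.00809). With glucose present, OGDH loss called 1 gene of these 4 lists by edgeR, CEBPB, which was higher (0.71, adjusted p = 0.0485), beside 3.04% of all genes; DESeq2 called 1 import gene and 3 regulators.

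DNAJA3 (chromosome 16, 4425805 to 4456775, plus strand), for the mortalin co-chaperone TID1, was barely counted. It had 110, 129 and 56 fragments in starved OGDH-depleted libraries and 227, 30 and 32 in OGDH-depleted libraries with glucose. It had 135, 15 and 24 fragments in starved control libraries, and 34, 160 and 23 in control libraries with glucose. Single libraries stood far from the others of their group, the groups overlapped throughout, and no fold change is given. None of its 7071 exon bases overlaps another gene in the table.

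The protein-coding rows beside DNAJA3 were as low. With distances taken from the centre of DNAJA3, the other rows from GLIS2 at -114 kb to C16orf96 at 137 kb averaged at most 72.6 counts per library, among them NMRAL1 at 72.6, HMOX2 at 70.1 and CDIP1 at 35.9. PAM16, a subunit of the import motor that also works with mortalin, had 1 to 9 counts per library, CORO7 averaged 4.75, VASN 0.50 and the readthrough row CORO7-PAM16 0. Beyond them TFAP4 at -176 kb averaged 959, UBALD1 at 171 kb 2137 and MGRN1 at 212 kb 2792, whereas SRL at -226 kb averaged 0.42. The libraries with the most counts were not the same ones for neighbouring genes: DNAJA3 was highest in OGDH-depleted replicate 1 with glucose at 227, HMOX2 in replicate 2 of that group at 217, and NMRAL1 in starved OGDH-depleted replicate 3 at 160. The cause was not tested, and the DNAJA3 row is not read here as the level of its mRNA.

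**Figure D5:**
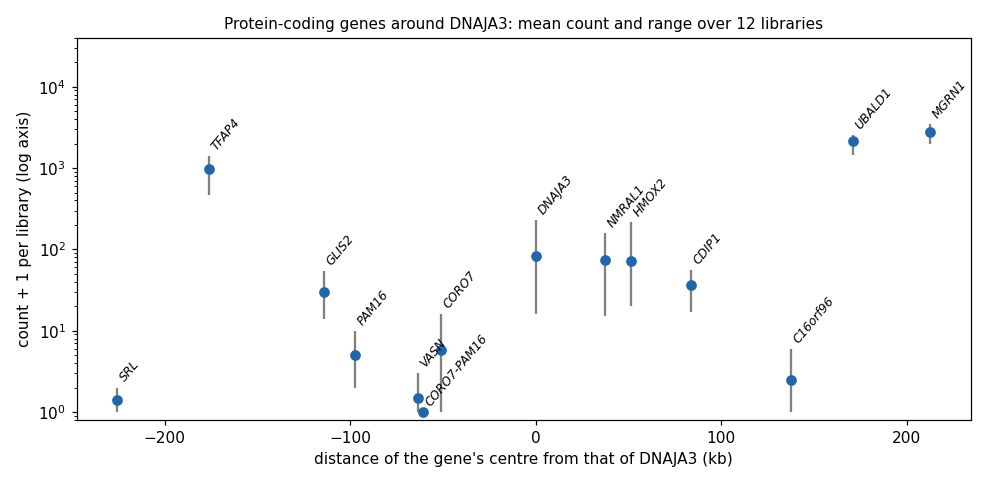
Mean count plus 1 over the 12 libraries (points, log axis) and range (lines) of protein-coding rows against the distance of the gene's centre from that of DNAJA3 (kb). The 10 rows from GLIS2 to C16orf96 average at most 81.2 counts, while TFAP4, UBALD1 and MGRN1 outside them average 959 to 2792.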

How the data were processed

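The authors deposited a table of raw counts, 1 row per gene name, made by featureCounts 2.0.1 per the file headers: pairs were counted over exons, without strand, and fragments matching several places or several genes were left out. Per the submitters' processing notes the tool was Subread and the build hg38; the sources used here name neither aligner nor library kit. This counting lowers genes with near-identical copies or overlapping neighbours, and antisense fragments cannot be told apart. The deposited exon length of each row served for levels per kb.

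Counts were used as deposited. Genes passing edgeR's filterByExpr (minimum count 10, total 15) numbered 18526 and held 99.9% of counts. edgeR 4.0.16 (R 4.3.3) fitted 1 mean per group over all 12 libraries, with TMM scaling and the quasi-likelihood test. p-values were adjusted by Benjamini-Hochberg over all tested genes of each of 5 comparisons, at a threshold of 0.05. CPM are TMM-scaled, and 95% intervals use 8 residual degrees of freedom. Over all tested genes the median SE (log2) was 0.22 in the control starvation comparison and 0.31 in the interaction, which limits what 3 libraries a group can resolve. Replicates differed beyond sampling noise (chi-square per degree of freedom 3.91 to 160), so none was counted as a repeat. The test was checked on simulated counts with known changes, drawn for each gene on its own. These counts carried no shifts shared by the genes of a library, so the check does not cover the GC slopes described above. GC content came from GENCODE transcripts and was found for 81.4% of tested genes.

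The 10 genes and all lists were chosen with earlier results of these data known. Each comparison gives values of the 10 genes, except DNAJA3, whose counts were too low for a fold change. Counts of calls and medians over the 10 genes still include its row. Of the further lists, counts are given, and up to 3 called members of smallest p are named. The genes with the profile most like that of LONP1 are not reported here. Among the regulators, ATF4, ATF5 and HSF1 were picked after their values were seen. Alternatives were DESeq2 1.42.0, other scalings and filters, only the compared groups, mitochondrially encoded rows left out, pseudogene rows added, a replicate block, each library left out and, added after seeing the data, 3 outlying libraries left out and a GC correction.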

Additional observations from a re-analysis of the deposited data

Results flagged for a closer look

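The starvation response of HSPA9 differed between OGDH-depleted and control cells by a test of the difference itself: the log2 response in OGDH-depleted cells minus that in control cells was -0.83 (edgeR's quasi-likelihood test, adjusted p = 0.0263). The response in OGDH-depleted cells did not itself pass (0.29, 95% interval -0.074 to 0.66, adjusted p = 0.282), whereas that in control cells did (1.12, adjusted p = 0.000265). It was the 1 interaction past the threshold among the 10 genes, beside 17.3% of all tested genes called in either direction. The call was lost in 9 of 12 fits that left out 1 library (edgeR adjusted p up to 0.0656).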

How the results depend on the processing

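Counts of the 10 genes called were 1, 4, 2, 0 and 1 for starvation in OGDH-depleted cells, starvation in control cells, OGDH loss without glucose, OGDH loss with glucose and the interaction. For starvation in OGDH-depleted cells the count was 2 with DESeq2, with mitochondrially encoded rows left out, with no filter, with only the compared groups, without the 3 outlying libraries and with the GC correction, HSPD1 joining HSPE1 in each, and 0 with the pseudogene rows added. For starvation in control cells it was 3 with no filter, with only the compared groups and with the pseudogene rows added, and 5 without the 3 outlying libraries (CLPX joining) and with the GC correction (LONP1 and TRAP1 joining, YME1L1 lost). For OGDH loss without glucose it was 1 with only the compared groups and 4 without the 3 outlying libraries; for the interaction it was 4 without these libraries and 2 with the GC correction. With 1 library left out it ran from 0 to 2, 3 to 5, 1 to 2, 0 to 0 and 0 to 1. HSPA9 and HSPD1 stayed higher and called for starvation in control cells in every setting tried. Log2 fold changes that changed sign were those of genes that had not been called. Without the 3 outlying libraries they became 0.091 for TRAP1 in starved OGDH-depleted cells, -0.15 for TRAP1 and -0.24 for LONP1 in starved control cells, 0.098 for TRAP1, 0.39 for LONP1 and 0.068 for AFG3L2 under OGDH loss without glucose, 0.050 for HSPA9, 0.0084 for CLPX and -0.022 for AFG3L2 under OGDH loss with glucose, and 0.24 for TRAP1, 0.15 for LONP1 and 0.090 for AFG3L2 in the interaction. With the GC correction they became 0.19 for TRAP1, 0.0093 for LONP1, -0.070 for CLPX and -0.12 for YME1L1 in starved OGDH-depleted cells, and -0.16 for CLPP and 0.034 for CLPX under OGDH loss with glucose. TRAP1 in starved OGDH-depleted cells became 0.00038 with DESeq2, 0.00034 with DESeq2's size factors and 0.0018 with no filter. In starved control cells upper-quartile scaling gave -0.0034 for TRAP1 and -0.052 for CLPP, and no filter -0.019 for CLPP. AFG3L2 became 0.023 with no filter under OGDH loss without glucose, HSPE1 0.0044 without mitochondrially encoded rows under OGDH loss with glucose, and HSPE1 0.042 with the pseudogene rows added in the interaction. With 1 library left out, TRAP1 ran from -0.084 to 0.13 in starved OGDH-depleted cells, and in starved control cells TRAP1 ran from -0.053 to 0.13, CLPP from -0.058 to 0.065 and AFG3L2 from -0.089 to 0.0079. Under OGDH loss without glucose TRAP1 ran from -0.16 to 0.059, LONP1 from -0.34 to 0.23 and AFG3L2 from -0.091 to 0.067. Under OGDH loss with glucose HSPE1 ran from -0.099 to 0.056, HSPA9 from -0.19 to 0.060, TRAP1 from -0.13 to 0.059, CLPP from -0.00041 to 0.12, CLPX from -0.12 to 0.019 and AFG3L2 from -0.011 to 0.073. In the interaction TRAP1 ran from -0.14 to 0.075, CLPX from -0.12 to 0.016 and AFG3L2 from -0.13 to 0.023. The cause of these changes was not tested. Correlations of same-numbered deviations ran from -0.79 to 0.70. The deviations also carry each library's GC slope, so they cannot settle whether equal replicate numbers paired the samples. With the replicate number as a block the same number of the 10 genes was called in each comparison, and the HSPA9 interaction was -0.84 (edgeR adjusted p = 0.034). Over all genes, the 1330 calls for starvation in OGDH-depleted cells became 2031 with DESeq2, 3313 without the 3 outlying libraries and 583 to 1959 with 1 library left out; the 563 calls for OGDH loss with glucose became 1172 with DESeq2, 215 with only the compared groups, 342 with the block, 1477 with the GC correction, 2021 without the 3 outlying libraries and 172 to 632 with 1 library left out. Without the 3 outlying libraries, the 6400, 5310 and 3196 calls of the other comparisons became 11364, 9874 and 8077.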
